A study of Mus musculus with 15 samples.

Results

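The genes described here encode 10 transcription factors that drive or restrain the formation of fat cells: Cebpb, Cebpd, Klf4, Klf5, Pparg, Cebpa, Ebf1, Zfp423, Zfp521 and Gata2. They were chosen by name from 29072 gene symbols in the deposited table, and for each symbol the transcript entry with the highest mean over the 15 libraries was taken. Of the 10, 9 passed the filter on low values and were tested among 13869 genes. Zfp423 had too few reads and is given by its reads.

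RNA sequencing was done on brown preadipocytes, the precursor cells of heat-producing fat, prepared from the interscapular brown fat of 129SvEv mice and immortalised with the SV40 large T antigen. There were 5 groups of 3 libraries. The control group is labelled as having no agent. The other groups were treated for 48 h with 5.56 nM of the fibroblast growth factors FGF1, FGF8b or FGF9, or with 5.56 nM FGF8b and 2 µM BAY-876, which blocks the glucose carrier GLUT1. The text of the series gives 1 µg/ml heparin, a sulphated sugar chain that FGFs use to engage their receptors, to the FGF-treated cells, whereas on the sample labels heparin stands beside FGF9 only. There was no group with heparin alone or with BAY-876 alone, so their own effects cannot be told apart from those of the FGFs. Nothing in the labels ties the 3 libraries of a group to separate cultures. The p-values therefore measure only the spread between these samples, which may be technical. All groups share the immortalised background, a single strain and a single depot, and the cells are described as preadipocytes in every group.

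Fat cell formation is usually described as a cascade. C/EBPβ and C/EBPδ, helped by KLF4 and followed by KLF5, act early and induce PPARγ and C/EBPα, which then sustain each other and switch on the genes of the mature fat cell. EBF1 and ZFP423 act before this step in committed precursors, while ZFP521, which binds and opposes ZFP423 and EBF1, and GATA2, which represses Pparg, hold precursors back. FGFs signal through receptor tyrosine kinases and the ERK pathway, and the question the design poses is how the FGFs differ in what they do to the transcriptome of such precursors.

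The precursor identity named in the labels was checked first. All 9 brown preadipocyte markers were measured and tested, and their summed level was 2034 to 2229 RPKM (reads per transcript length and library depth) in control, 1287 to 1336 in FGF1, 855 to 908.6 in FGF8b, 859 to 880.3 in FGF9 and 549.7 to 571.3 in FGF8b plus BAY-876. Most of the fall of that sum was Ly6a, with means of 1015 RPKM in control and 52.65 in FGF8b, and Pdgfra, with 276.2 and 39.86, and the list did not move as one. Against control, 3 markers rose and 3 fell in FGF1, and 4 rose and 5 fell in FGF8b (2 and 5 with median-of-ratios or trimmed-mean scaling). In FGF8b plus BAY-876 1 rose and 8 fell against control. Of all genes tested, 34.4%, 64.4% and 72.7% rose or fell in these comparisons (limma, adjusted p below 0.05). Cd44 rose from a mean of 27.42 RPKM in control to 49.69 in FGF8b and 103.8 in FGF8b plus BAY-876, and Thy1 from 37.81 to 62.8 in FGF8b. Among the 8 markers of mature brown adipocytes, Cox8b was at 0 in every library, and the sum ran from 6.47 to 8.11 RPKM in control, 10.06 to 12.3 in FGF1, 35.7 to 38.6 in FGF8b, 43.3 to 51.3 in FGF9 and 7.70 to 9.47 in FGF8b plus BAY-876. Most of the difference of FGF8b and FGF9 from control was Ucp1, the uncoupling protein of brown fat. Its means were 0.0226 RPKM in control, 26.7 in FGF8b and 37.4 in FGF9, but 0.0184 in FGF1. In FGF1 against control, Fabp4 went from a mean of 5.86 to 8.05 RPKM and Cox7a1 from 1.23 to 2.99. Of the 8 skeletal muscle markers, Myod1, Myog and Myf5 were at 0 in every library and the sum lay between 4.28 and 9.58 RPKM. Most of it was Acta1, with means of 5.12 RPKM in control and 7.59 in FGF1. In FGF1 against control Acta1 rose by 0.52 ± 0.12 and Tnnt3 by 0.70 ± 0.21 on the log2 scale. Of the 7 macrophage markers, Adgre1 was at 0 throughout, and the sum lay between 5.315 and 9.28 RPKM. Cd14, Itgam and Csf1r had means of 2.71, 1.97 and 0.888 RPKM in control. None of the 7 endothelial markers was at 0 throughout, and their sum was 7.65 to 8.98 RPKM in control, 1.678 to 1.768 in FGF1, 0.403 to 0.590 in FGF8b and FGF9, and 1.836 to 2.098 in FGF8b plus BAY-876, with Kdr and Tek making up most of it in control. Between FGF8b alone and with BAY-876, Vwf went from a mean of 0.0117 to 1.109 RPKM (log2 change 1.65 ± 0.08, adjusted p = 1.60e-10) and Kdr from 0.0283 to 0.421 (0.80 ± 0.09, adjusted p = 2.82e-06). In bulk RNA, fewer cells of a type and less RNA per cell cannot be told apart, and the part of these marker shifts in the results below was not tested. Between 27.01 M and 42.6 M reads stood behind a library, so 1 read on a transcript of 1 kb was worth 0.0234 to 0.0370 RPKM.

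The promoters of 3 factors are shown: Klf4, which fell with all 3 FGFs, Cebpa, which rose with FGF1 and fell with the other FGFs, and Cebpb, which rose with FGF8b and FGF9. That of Zfp521, the factor with the largest change from control in FGF9, is not shown. The sequences are those of RefSeq on GRCm38.p6, from 250 bases before to 50 bases after the annotated start, written 5′ to 3′ on the strand of the gene. Capitals mark matches, on either strand, to the ETS core CCGGAA, the cAMP response half-site TGACG, the CCAAT box, the GC box GGGCGG or the TATA box TATAAA.
Klf4, chr4:55532426-55532725, minus strand: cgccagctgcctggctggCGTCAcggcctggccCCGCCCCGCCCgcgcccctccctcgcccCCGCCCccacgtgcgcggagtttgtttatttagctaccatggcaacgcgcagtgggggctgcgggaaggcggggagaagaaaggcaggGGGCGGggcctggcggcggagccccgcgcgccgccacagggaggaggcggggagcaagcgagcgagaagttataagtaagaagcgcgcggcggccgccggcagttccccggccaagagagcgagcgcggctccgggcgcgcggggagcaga
Cebpa, chr7:35119043-35119342, plus strand: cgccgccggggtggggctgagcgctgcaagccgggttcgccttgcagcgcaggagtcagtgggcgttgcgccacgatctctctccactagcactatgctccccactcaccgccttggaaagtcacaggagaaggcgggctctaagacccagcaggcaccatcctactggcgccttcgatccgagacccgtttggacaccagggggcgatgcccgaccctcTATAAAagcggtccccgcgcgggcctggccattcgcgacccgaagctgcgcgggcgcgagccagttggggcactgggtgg
Cebpb, chr2:167688665-167688964, plus strand: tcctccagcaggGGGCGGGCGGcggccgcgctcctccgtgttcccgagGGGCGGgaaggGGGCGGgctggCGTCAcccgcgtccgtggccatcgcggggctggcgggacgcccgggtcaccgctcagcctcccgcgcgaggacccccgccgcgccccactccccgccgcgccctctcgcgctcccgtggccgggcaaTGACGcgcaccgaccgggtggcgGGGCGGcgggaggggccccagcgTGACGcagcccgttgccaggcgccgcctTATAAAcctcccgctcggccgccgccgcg
The Klf4 window held 1 cAMP response half-site and 4 GC boxes, some of which overlap each other. The Cebpa window held 1 TATA box and no other of the motifs searched. The Cebpb window held 3 cAMP response half-sites, 5 GC boxes and 1 TATA box. Among 32851 mouse promoters of the same length, 14.9% held the ETS core, 20.8% the half-site, 37.4% a CCAAT box, 35.7% a GC box and 13.6% a TATA box. No ETS core was found in any of the 12 start sites listed for 7 of the 10 genes, which says only that these letters are not in these windows.

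Levels in control cells differed widely between the factors. Zfp521, Ebf1 and Klf4 were the most abundant, at 19.0 ± 0.825, 16.7 ± 1.23 and 13.9 ± 1.70 RPKM (mean ± SD, n = 3), with Ebf1 and Klf4 overlapping. The remaining tested factors lay between 3.75 ± 0.288 RPKM for Pparg and 1.57 ± 0.133 for Klf5, with Gata2, Cebpb, Cebpa and Cebpd between them and several neighbours overlapping. RPKM is a level per transcript length, but it depends on the transcript entry used: the Cebpa entry is only 291 bases long, and the RefSeq entry of 2636 bases gave 1.34 ± 0.129 RPKM in control.

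**Figure D1:**
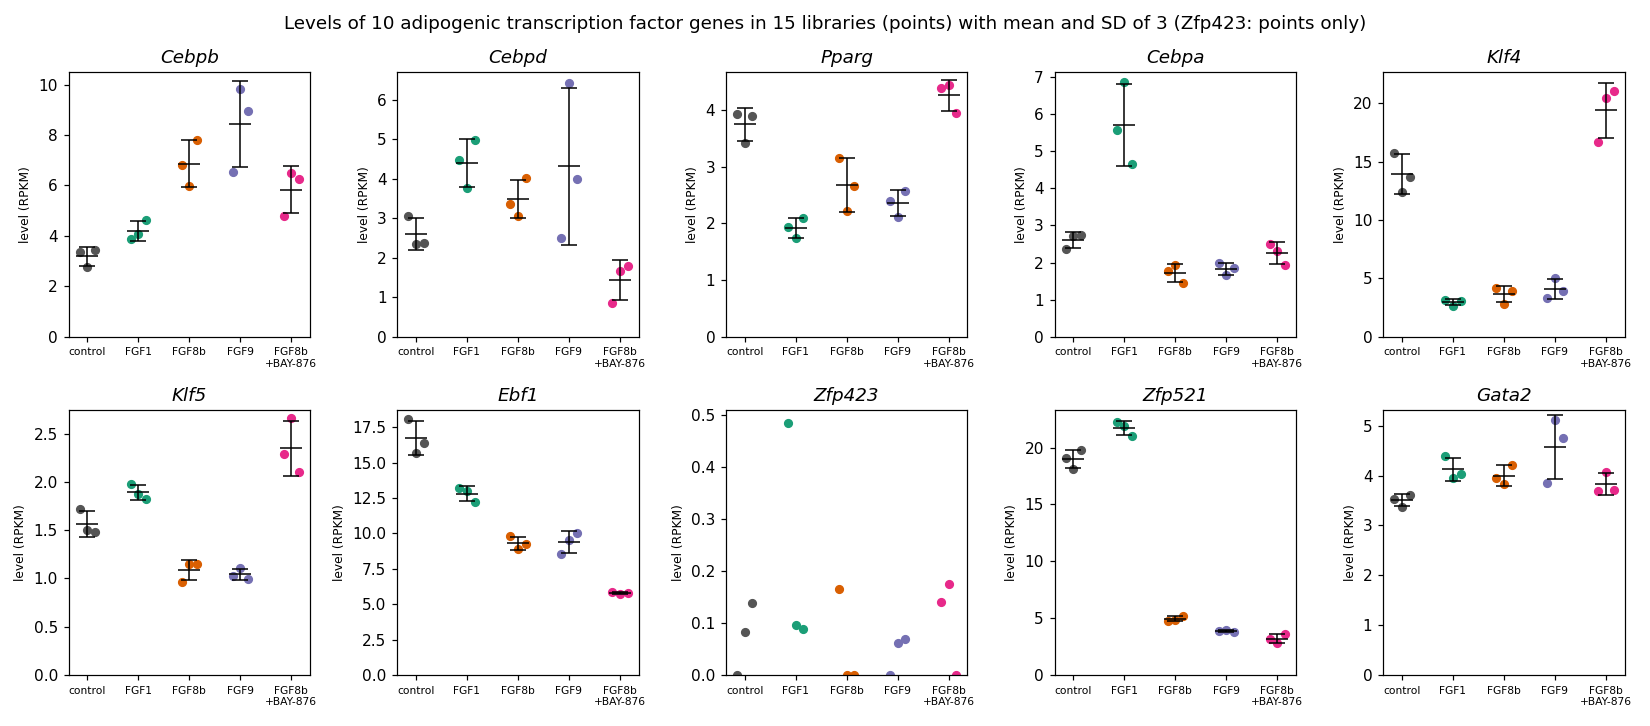
Level of each of the 10 genes (RPKM, linear axes that differ between panels) in every library, by treatment; points are libraries, and horizontal lines and whiskers are the mean and SD of 3 libraries, left out for Zfp423, whose entry had 0 to 6 reads. Klf4 is low in all 3 FGF groups and high in control and FGF8b plus BAY-876, Zfp521 is high in control and FGF1 only, and Cebpa stands highest in FGF1.

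Klf4 (chromosome 4, 55527143 to 55532466 on GRCm38, minus strand), a zinc finger factor that is induced early and acts on Cebpb, was lower with each FGF. Its level was 15.8, 12.4 and 13.7 RPKM in the control libraries. It was 3.16, 2.64 and 3.09 in FGF1, 4.19, 2.84 and 3.95 in FGF8b, and 3.35, 5.06 and 3.90 in FGF9. With BAY-876 added to FGF8b it was 16.7, 20.5 and 21.0. No FGF library reached the lowest control library, and no library with BAY-876 fell to the highest control library. The mean in FGF1 was 4.70-fold below control (log2 change -2.06 ± 0.15 SE, adjusted p = 4.13e-08, limma with Benjamini-Hochberg adjustment, as for all adjusted p below). The falls in FGF8b and FGF9 were 3.81-fold and 3.40-fold. Against FGF8b alone, FGF8b plus BAY-876 was 5.30-fold higher (log2 change 2.27 ± 0.15, adjusted p = 5.08e-09), and it was also 1.39-fold above control (0.46 ± 0.15, adjusted p = 0.0114). The last call was lost without control library 2 (adjusted p = 0.0541).

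Klf5 (chromosome 14, 99298691 to 99315036, plus strand), a factor that C/EBPβ and C/EBPδ induce and that acts on Pparg, was the least abundant of the tested factors in control. It stood at 1.72, 1.50 and 1.48 RPKM in control and at 1.98, 1.87 and 1.82 in FGF1. In FGF8b it was 0.965, 1.15 and 1.15, in FGF9 1.02, 1.11 and 0.996, and in FGF8b plus BAY-876 2.28, 2.66 and 2.10. FGF8b and FGF9 libraries lay below all control and FGF1 libraries, and those with BAY-876 above all others. Klf5 fell by 0.38 on the log2 scale in FGF8b and by 0.42 in FGF9 (SE 0.09, adjusted p = 0.00204 and 8.94e-04). It was 0.84 ± 0.09 higher with BAY-876 than with FGF8b alone (adjusted p = 1.63e-06) and 0.46 ± 0.09 above control (adjusted p = 3.52e-04). The change in FGF1, 0.21 ± 0.09, had an adjusted p of 0.0943.

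Cebpb (chromosome 2, 167688915 to 167690418, plus strand) encodes C/EBPβ, one of the factors that open the cascade. Its level was 3.36, 2.76 and 3.45 RPKM in control, 3.89, 4.09 and 4.63 in FGF1, and 6.82, 5.97 and 7.81 in FGF8b. It was 6.55, 9.82 and 8.95 in FGF9 and 4.78, 6.49 and 6.24 in FGF8b plus BAY-876. Every FGF8b and FGF9 library lay above every control and FGF1 library, and the BAY-876 libraries overlapped those of FGF8b. The mean was 2.15-fold above control in FGF8b (adjusted p = 1.99e-05) and 2.65-fold in FGF9 (adjusted p = 1.42e-06). FGF1 gave 0.35 ± 0.15 on the log2 scale (adjusted p = 0.0752, or 0.0358 without FGF9 library 1). Against FGF8b, the addition of BAY-876 gave -0.22 ± 0.15, with a 95% interval from -0.53 to 0.09 (adjusted p = 0.207), and Cebpb remained 1.83-fold above control there (adjusted p = 1.82e-04).

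Cebpd (chromosome 16, 15887286 to 15891031, plus strand) encodes C/EBPδ, the partner of C/EBPβ, and was the most variable of the tested factors. Its level was 3.06, 2.36 and 2.37 RPKM in control, 4.47, 3.77 and 4.98 in FGF1, and 3.37, 3.06 and 4.02 in FGF8b. In FGF9 it was 2.50, 6.43 and 4.01, so that the first library lay among the controls and the second above all others. With FGF8b plus BAY-876 it was 0.849, 1.66 and 1.79, below every other library. Cebpd was 2.43-fold lower with BAY-876 than with FGF8b alone (log2 change -1.07 ± 0.25, adjusted p = 0.00153). It was also lower than in control, by 1.81-fold (adjusted p = 0.0166), a call that was lost without control library 1 (adjusted p = 0.0631) or without the first BAY-876 library (0.0971). The rise in FGF1, 1.70-fold, had an adjusted p of 0.0476 and was lost in 15 of 27 alternative fits, among them those without control library 2 or 3, any FGF1 or FGF8b library, FGF9 library 3 or BAY-876 library 2 (adjusted p = 0.0530 to 0.143). FGF9 gave 0.56 ± 0.25 (adjusted p = 0.0560), and 0.86 without its first library (adjusted p = 0.00319). It also passed without control library 1 (0.0488) or the first BAY-876 library (0.0339). With all libraries kept, it passed with the RefSeq entry (0.0344), the sum of all entries (0.0374), voom (0.0478) or a pseudocount of 1 (0.0488). Over the 27 alternative fits 7 passed, and adjusted p ran from 0.00319 to 0.318.

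Pparg (chromosome 6, 115360951 to 115490399, plus strand) encodes PPARγ, the nuclear receptor without which fat cells do not form. It stood at 3.93, 3.42 and 3.90 RPKM in control and at 1.94, 1.74 and 2.09 in FGF1. FGF8b gave 3.16, 2.22 and 2.66, FGF9 2.39, 2.12 and 2.58, and FGF8b plus BAY-876 4.39, 4.45 and 3.95. All libraries of the 3 FGF groups lay below the control libraries, FGF1 lowest, and those with BAY-876 lay above them. Pparg was 1.95-fold lower than control in FGF1 (adjusted p = 2.79e-05), 1.40-fold lower in FGF8b (adjusted p = 0.00291) and 1.59-fold lower in FGF9 (adjusted p = 2.70e-04). FGF8b exceeded FGF1 by 0.38 ± 0.11 on the log2 scale (adjusted p = 0.00677). BAY-876 with FGF8b gave a level 1.59-fold above FGF8b alone (adjusted p = 2.57e-04), and against control its change was 0.17 ± 0.11 (adjusted p = 0.186).

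Cebpa (chromosome 7, 35119293 to 35121928, plus strand) encodes C/EBPα, which with PPARγ maintains the fat cell state. It was the only tested factor that passed the threshold upward in FGF1 and downward in the other FGFs. Klf5 and Zfp521 had the same signs, but their FGF1 changes of 0.21 and 0.19 did not pass (adjusted p = 0.0943 and 0.0698). Control libraries had 2.36, 2.72 and 2.75 RPKM, whereas FGF1 libraries had 5.58, 6.87 and 4.66. FGF8b gave 1.76, 1.92 and 1.46, FGF9 1.98, 1.65 and 1.84, and FGF8b plus BAY-876 2.51, 2.32 and 1.93. The FGF1 libraries lay above and the FGF8b and FGF9 libraries below all controls, and those with BAY-876 overlapped the controls. Cebpa was 2.19-fold above control in FGF1 (log2 change 0.98 ± 0.13, adjusted p = 1.92e-05). It was 1.52-fold below control in FGF8b (adjusted p = 0.00331) and 1.43-fold below in FGF9 (adjusted p = 0.00923). The entry has few reads, 48 to 146 over the 3 libraries of a group, and with voom weights on recovered reads the falls in FGF8b and FGF9 had adjusted p of 0.0553 and 0.0698. The longer RefSeq entry, with 222 to 656 reads a group, gave 0.85 in FGF1, -0.42 in FGF8b and -0.29 in FGF9 with adjusted p of 4.12e-06, 0.00118 and 0.0130. Between FGF8b with and without BAY-876 the difference was 0.31 ± 0.13 (adjusted p = 0.0465). Over 27 alternative fits adjusted p ran from 0.0165 to 0.252, and the call was lost in 12 of them. Those 12 include the fits without FGF8b library 1 or 3, BAY-876 library 1 or 2, or control library 2 or 3. They also include those without FGF1 library 1 or FGF9 library 3, and these leave-out fits gave 0.0521 to 0.182. The fits with voom (0.252) or no filter on low values (0.0898) lost it too.

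Ebf1 (chromosome 11, 44617317 to 45008091, plus strand), which acts upstream of Pparg in precursors, was lower in every treatment. It was at 18.1, 15.7 and 16.4 RPKM in control and at 13.2, 13.0 and 12.2 in FGF1. It was at 9.79, 8.89 and 9.25 in FGF8b, 8.55, 9.55 and 10.1 in FGF9, and 5.84, 5.75 and 5.78 in FGF8b plus BAY-876. No 2 of these levels overlapped except those of FGF8b and FGF9. The falls from control were 1.31-fold in FGF1 (adjusted p = 8.52e-04), 1.80-fold in FGF8b (adjusted p = 8.40e-08), 1.78-fold in FGF9 (adjusted p = 8.88e-08) and 2.89-fold in FGF8b plus BAY-876 (adjusted p = 4.49e-11). The difference between FGF9 and FGF8b was 0.01 ± 0.07, with a 95% interval from -0.15 to 0.16. The summed brown preadipocyte markers, a sum carried mostly by Ly6a and Pdgfra, were also lower in each treatment, while Cd44 and Thy1 rose in FGF8b, and the part of these shifts in the fall of Ebf1 was not tested.

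Zfp423 (chromosome 8, 87661810 to 87959595, minus strand) encodes the zinc finger factor that marks committed precursors and acts with SMAD proteins on Pparg. Its chosen entry of 386 bases held 0 to 6 reads in a library and did not pass the filter. The RefSeq entry of 4907 bases held 17, 18 and 24 reads in control, 30, 20 and 21 in FGF1, and 11, 6 and 8 in FGF8b. It held 6, 14 and 15 reads in FGF9 and 7, 10 and 8 in FGF8b plus BAY-876. Relative to control and per library depth, the ratio was 1.41 in FGF1 (exact 95% interval 0.987 to 2.03), 0.463 in FGF8b (0.278 to 0.751), 0.52 in FGF9 (0.332 to 0.803) and 0.404 in FGF8b plus BAY-876 (0.242 to 0.655). These intervals cover counting error alone and not the spread between libraries.

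Zfp521 (chromosome 18, 13687013 to 13972787, minus strand), the factor that opposes ZFP423 and EBF1, separated FGF8b and FGF9 from FGF1. Control libraries had 19.1, 18.1 and 19.8 RPKM and FGF1 libraries 22.2, 21.9 and 21.0. FGF8b libraries had 4.77, 4.87 and 5.21, FGF9 libraries 3.86, 3.93 and 3.78, and those with FGF8b plus BAY-876 3.15, 2.79 and 3.58. The FGF8b and FGF9 libraries lay far below those of control and FGF1, and the 3 BAY-876 libraries below all others. Zfp521 was 3.84-fold below control in FGF8b (log2 change -1.84 ± 0.08, adjusted p = 8.96e-12), 4.93-fold below in FGF9 (adjusted p = 1.09e-12) and 5.99-fold below in FGF8b plus BAY-876 (adjusted p = 1.79e-13). In FGF1 the change was 0.19 ± 0.08 (adjusted p = 0.0698), and 5 of 27 alternative fits took it past the threshold (lowest adjusted p = 0.0215), among them those without BAY-876 library 2 (0.0381) or 3 (0.0425). FGF8b lay 4.39-fold and FGF9 5.63-fold below FGF1 (adjusted p = 3.75e-12 and 5.97e-13). With BAY-876 it was 1.56-fold lower than with FGF8b alone (adjusted p = 1.12e-05).

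Gata2 (chromosome 6, 88193891 to 88207032, plus strand), which keeps precursors from differentiating, was the steadiest of the tested factors. It was at 3.54, 3.37 and 3.60 RPKM in control, 4.39, 3.95 and 4.03 in FGF1, and 3.95, 3.83 and 4.22 in FGF8b. It was at 3.85, 5.11 and 4.75 in FGF9 and 3.69, 4.07 and 3.71 in FGF8b plus BAY-876. Every treated library was above the control libraries, but by little. The rise in FGF9 passed the test (1.30-fold, log2 change 0.33 ± 0.09, adjusted p = 0.00486). The changes in FGF1 (0.21), FGF8b (0.17) and FGF8b plus BAY-876 (0.11), each with an SE of 0.09, had adjusted p of 0.0986, 0.123 and 0.292. Without FGF9 library 1 the adjusted p in FGF1 was 0.0470.

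The choice of transcript entry mattered little for direction. Over the entries of a gene with a mean of at least 0.5 RPKM, the change of Klf4 in FGF8b ran from -1.80 to -1.67 over 4 entries, that of Zfp521 from -1.84 to -1.72 over 4, and that of Ebf1 from -0.83 to -0.30 over 19. The size of a change varied more for some. The fall of Ebf1 in FGF1 ran from -0.45 to -0.02 over its 19 entries. That of Cebpd with BAY-876 against FGF8b alone ran from -1.10 to -0.57 over 6. Entries of a gene share reads and are not independent. Parts of 3 genes overlap exons on the opposite strand: 51 bases of Cebpa with Gm45091, 312 of Cebpb with Tmem189 and 562 of Cebpd with Spidr. The library kit named in the labels does not mark the strand, so reads from these stretches cannot be assigned to either gene.

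FGF1 against control had 2 tested factors higher, Cebpa and Cebpd, and 3 lower, Pparg, Ebf1 and Klf4. Over all 13869 genes tested, 19.3% were higher and 15.1% lower, or 34.4% in either direction. The libraries of the 2 groups did not overlap for 9 of the 9 factors, nor for 47.1% of all genes. The factors' median log2 change was 0.21 against 0.02 over all genes. Among 28 tested promoting regulators, a list of factors that favour fat cell formation, 4 rose and 3 fell. Klf15, a late activator of Pparg, fell by 1.52 ± 0.14 on the log2 scale (adjusted p = 3.65e-07), and Xbp1, a factor of the unfolded protein response, rose by 0.79 ± 0.06. Among 25 opposing regulators 4 rose and 9 fell. Snai1, a repressor of epithelial genes, rose by 1.43 ± 0.19 and Runx2, the bone factor, by 0.80 ± 0.10, while Klf2 fell by 0.82 ± 0.16 and Ddit3, which encodes the stress factor CHOP, by 0.66 ± 0.08.

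FGF8b against control had 1 tested factor higher, Cebpb, and 6 lower, Pparg, Cebpa, Klf4, Klf5, Ebf1 and Zfp521. Over all genes 37.8% were higher and 26.6% lower (64.4% in either direction), so most genes passed this test. The libraries did not overlap for 9 of the 9 factors and 67.5% of all genes. FGF9 against control had 2 higher, Cebpb and Gata2, and 6 lower, Pparg, Cebpa, Klf4, Klf5, Ebf1 and Zfp521, where 38.7% of all genes were higher and 27% lower (65.7% in either direction). Here 8 of the 9 factors did not overlap, with 65.8% of all genes. The factors' median log2 change was -0.43 in FGF8b and -0.42 in FGF9, against 0.08 and 0.10 over all genes. The 3 FGF comparisons share their control libraries. The plot of changes against control sets them side by side.

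**Figure D2:**
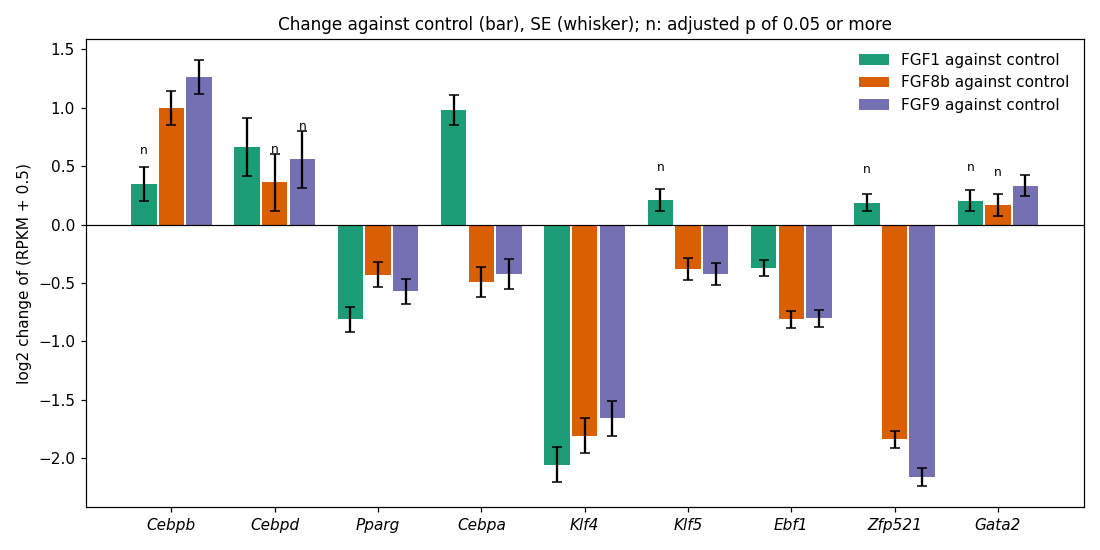
Change of each tested factor against control (vertical axis, log2 change of RPKM plus 0.5) in FGF1, FGF8b and FGF9; bars are fitted changes, whiskers their SE, and n marks an adjusted p of 0.05 or more. Klf4 fell in all 3, Zfp521 fell by 1.84 in FGF8b and 2.16 in FGF9, and Cebpa rose by 0.98 in FGF1 and fell in the others.

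The wider regulators moved in both directions in FGF8b, as did all genes, of which 37.8% rose and 26.6% fell. Of 28 promoting regulators 6 rose and 12 fell, with a median of -0.18 against 0.08 over all genes. Prdm16, the determinant of brown fat identity, rose by 1.05 ± 0.16, from a mean of 0.226 RPKM in control to 1.01 in FGF8b. Its control level is below the 0.5 added to RPKM, and voom on recovered reads gave 2.12. Klf15 rose by 0.54 ± 0.14, while Nfia, a factor that opens brown fat enhancers, fell by 1.05 ± 0.15 and Fosl2 by 0.90 ± 0.07. Of 25 opposing regulators 10 rose and 11 fell, with a median of 0.00. Ddit3 rose by 2.16 ± 0.08 (from a mean of 42.5 RPKM in control to 192 in FGF8b) and Wwtr1, which encodes the Hippo effector TAZ, by 1.08 ± 0.09, whereas Tcf7l2, the WNT pathway factor, fell by 1.74 ± 0.10 and Klf3 by 0.98 ± 0.07. In FGF9, 6 promoting regulators rose and 11 fell, and 12 opposing regulators rose and 9 fell, where 38.7% of all genes rose and 27% fell. Ddit3 was again highest at 2.22 ± 0.08 and Tcf7l2 lowest at -1.89 ± 0.10.

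The families of the factors did not move as blocks. Of 5 tested genes with a C/EBP name, Cebpg rose with Cebpb in FGF8b (1.50 ± 0.10), while Cebpa fell. Cebpz, grouped with them by name only, rose by 0.39 ± 0.07. Of 3 EBF genes, Ebf3 fell with Ebf1 (-0.86 ± 0.08) while Ebf2, a marker of committed brown precursors, was 0.18 ± 0.07 above control (adjusted p = 0.0222). Under median-of-ratios scaling Ebf2 gave 0.09 (adjusted p = 0.21) and under trimmed-mean scaling 0.11 (0.131). Of 12 KLF genes 4 rose and 7 fell, where 37.8% of all genes rose and 26.6% fell. Klf10 rose by 0.86 ± 0.07 and Klf6 fell by 0.64 ± 0.06. Of the 2 tested GATA genes Gata6 fell, by 1.32 ± 0.13.

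**Figure D3:**
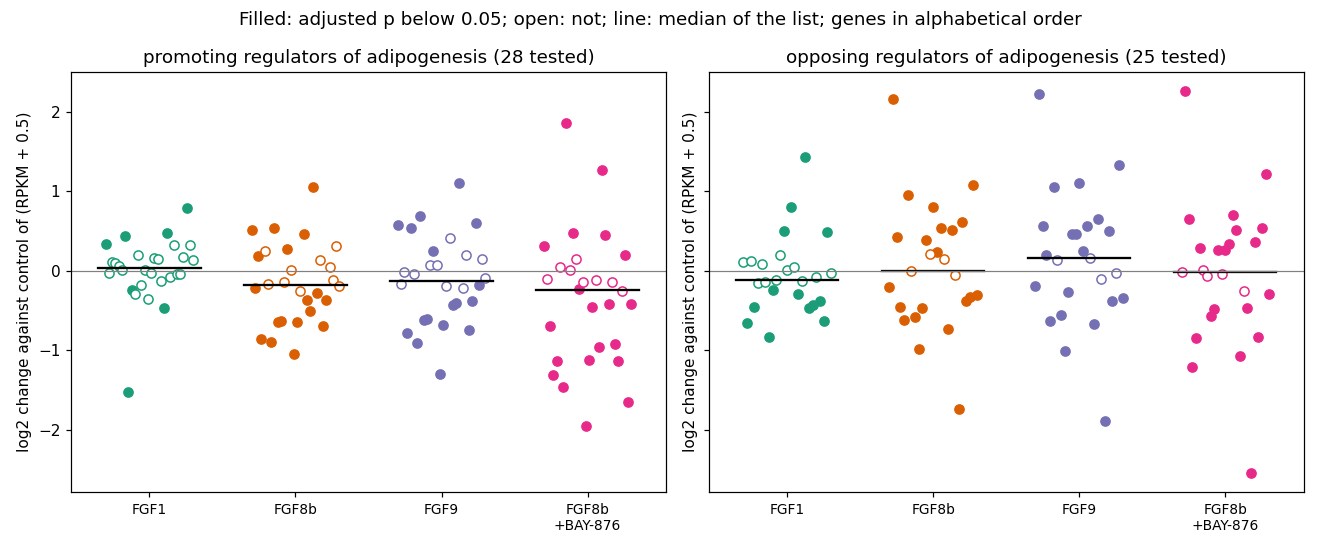
Change against control (vertical axis, log2 change of RPKM plus 0.5) of 28 promoting and 25 opposing regulators of fat cell formation in 4 treatments; filled points passed an adjusted p of 0.05, open points did not, and lines are the medians of the list. Both lists spread to either side of 0, with Ddit3 the highest and Tcf7l2 the lowest opposing regulator in FGF8b and FGF9.

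Of 26 genes in a list of fat cell target genes, 14 passed the filter on low values. Which factor acts on each of them was not tested. The counts below stand beside shares over all genes of 19.3% higher and 15.1% lower in FGF1. Those shares were 37.8% and 26.6% in FGF8b, and 38.7% and 27% in FGF9. In FGF1 5 rose and 3 fell, Angptl4 by 0.71 ± 0.10 and Scd1 by 0.63 ± 0.09 upward and Plin4 by 0.78 ± 0.10 and Lpl by 0.73 ± 0.09 downward. In FGF8b 4 rose and 6 fell. Lpl, the lipoprotein lipase, fell by 2.16 ± 0.09, from a mean of 78.8 RPKM to 17.2, and Angptl4, its inhibitor, by 0.76 ± 0.10, while Dgat2, which makes triglyceride, rose by 1.30 ± 0.10. In FGF9 3 rose and 7 fell, again with Lpl lowest (-2.34 ± 0.09) and Dgat2 highest (1.43 ± 0.10). Of 20 tested genes of signals upstream of the cascade, 5 rose and 11 fell in FGF8b. Igf1, the insulin-like growth factor, fell by 5.44 ± 0.16 and Pdgfra, the receptor that marks fat precursors, by 2.79 ± 0.07, while Bmpr1b, a BMP receptor, rose by 1.09 ± 0.09. In FGF1 5 rose and 5 fell, Fgf10 by -2.17 ± 0.10 and Igf1 by -1.17 ± 0.16.

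FGF8b and FGF9 were then compared with FGF1 directly, since a change that passes in one group and not in another is no test of the difference. In FGF8b 2 tested factors were higher than in FGF1, Pparg and Cebpb, and 4 lower, Cebpa, Klf5, Ebf1 and Zfp521, where 33.3% of all genes were higher and 26.6% lower (59.9% in either direction). In FGF9 2 were higher, Cebpb and Klf4, and 4 lower, Cebpa, Klf5, Ebf1 and Zfp521, where 34.7% of all genes were higher and 27.2% lower (61.9% in either direction). The libraries did not overlap for 6 factors in FGF8b and 7 in FGF9, against 68.9% and 66.3% of all genes. Cebpa was 3.33-fold lower in FGF8b and 3.12-fold lower in FGF9 than in FGF1 (adjusted p = 7.84e-08 and 1.25e-07), and Cebpb 1.63-fold and 2.01-fold higher (adjusted p = 0.00126 and 5.34e-05). Klf4, with a difference of 0.40 ± 0.15 in FGF9 against FGF1 (adjusted p = 0.0300), lost that call without the second FGF1 library (adjusted p = 0.109) or the second FGF9 library (0.154), with voom on recovered reads (0.0628) and with no filter on low values (0.0621). Some differences passed when a library was left out. These were Pparg between FGF9 and FGF1 (0.24 ± 0.11, adjusted p = 0.0673, or 0.0411 to 0.0451 without FGF8b library 1, FGF8b library 2 or FGF9 library 2) and Klf4 between FGF8b and FGF1 (0.25 ± 0.15, 0.157, or 0.0309 without FGF8b library 2). So was Gata2 between FGF9 and FGF1 (0.13 ± 0.09, 0.246, or 0.0282 without FGF9 library 1). With all libraries kept, Klf4 between FGF8b and FGF1 also passed with the RefSeq entry (0.29, adjusted p = 0.00787). The sum of all its entries passed as well (0.32, adjusted p = 0.0288). Among the wider regulators in FGF8b, Ddit3 was 2.82 ± 0.08 and Klf15 2.06 ± 0.14 above FGF1 on the log2 scale, while Fosl2 was at -1.34 ± 0.07 and Tcf7l2 at -1.31 ± 0.10.

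No tested factor passed the test between FGF9 and FGF8b in limma, where 41 of all genes (0.296%) did, 0.202% higher and 0.0937% lower in FGF9. That count of genes was 6 to 44 when 1 library was left out. With voom the count of factors was also 0, and 1 of the 9, Zfp521, had an unadjusted p below 0.05. Its change was -0.32 ± 0.08, with a 95% interval from -0.49 to -0.16 and an adjusted p of 0.135. It was also the 1 factor whose libraries did not overlap, as was so for 10.8% of all genes. The intervals of the others reached as far as 0.72 for Cebpd and 0.58 for Cebpb, so differences of that size are within the error. In the wider lists Egr1, an immediate-early gene of the ERK pathway, was higher in FGF9 by 0.64 ± 0.08, Bmp2 was higher by 0.47 ± 0.08 and Pdgfra lower by 0.38 ± 0.07 (adjusted p = 0.00116, 0.0227 and 0.0470). Bmp2 was listed at 0 in the control and FGF1 libraries.

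FGF8b plus BAY-876 against FGF8b alone had 4 tested factors higher, Klf4, Klf5, Pparg and Cebpa, and 3 lower, Cebpd, Ebf1 and Zfp521. Over all genes 22.5% were higher and 34.8% lower, 57.3% in either direction. The libraries did not overlap for 7 of the 9 factors and 62.7% of all genes. Of the calls over all genes 39.3% were higher, and 49.6% with median-of-ratios scaling or 50.6% with trimmed-mean scaling, under which the factors kept their direction except Gata2, whose change of -0.06 turned to a slightly positive one without passing in either. The comparison of FGF8b with control shares the FGF8b libraries with this one. Against control, FGF8b plus BAY-876 had 3 factors higher, Cebpb, Klf4 and Klf5, and 3 lower, Cebpd, Ebf1 and Zfp521, where 36.8% of all genes were higher and 35.9% lower (72.7% in either direction). There 8 of the 9 factors did not overlap, with 73.3% of all genes.

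**Figure D4:**
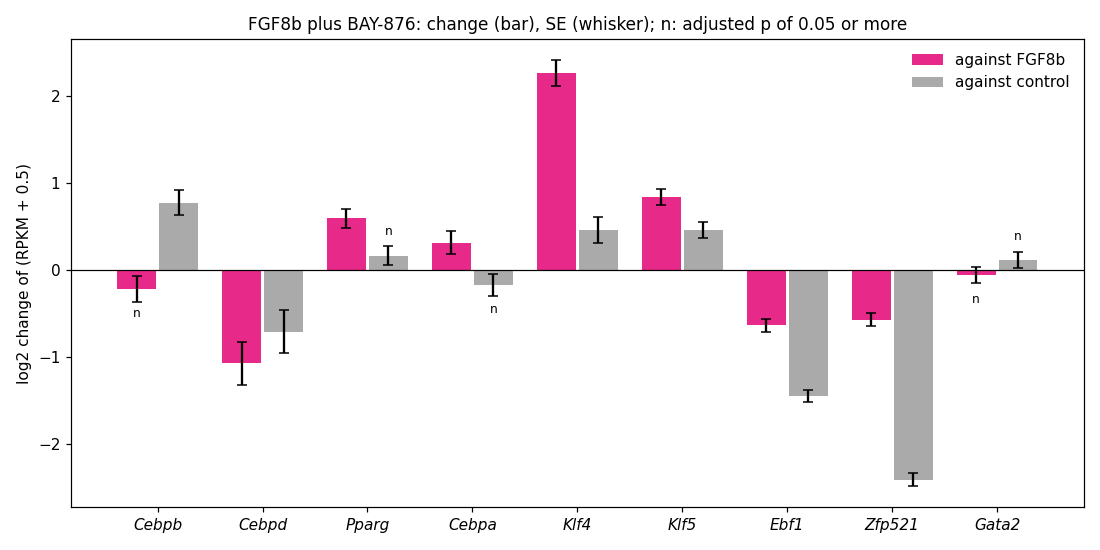
Change of each tested factor in FGF8b plus BAY-876 against FGF8b alone and against control (vertical axis, log2 change of RPKM plus 0.5); bars are fitted changes, whiskers their SE, and n marks an adjusted p of 0.05 or more. Klf4 rose by 2.27 against FGF8b and lay 0.46 above control, while Ebf1 and Zfp521 lay below both.

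Around the factors, BAY-876 was accompanied by changes in both directions. Of 28 promoting regulators 7 were higher and 13 lower than in FGF8b, where 22.5% of all genes were higher and 34.8% lower. Ppargc1a, the coactivator of mitochondrial genes, was higher by 1.77 ± 0.10 (a mean of 1.47 RPKM against 0.0771), Klf15 by 1.31 ± 0.14 and Klf9 by 1.10 ± 0.11. Zfp467, a cofactor that favours fat over bone, was lower by 1.96 ± 0.15 and Egr2, an early inducer of Cebpb, by 1.38 ± 0.11. Of 25 opposing regulators 6 were higher and 9 lower, Twist2 by 0.87 ± 0.12 upward and Tcf7l2 by 0.80 ± 0.10 downward. In the KLF family 9 of 12 tested genes were higher and 2 lower, with a median of 0.47 against -0.08 over all genes. All 3 tested EBF genes were lower, Ebf2 by 0.87 ± 0.07. Both families hold genes already counted, Klf4, Klf5 and Ebf1 among the factors and others among the regulators.

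Of 14 tested fat cell target genes 7 were higher and 3 lower with BAY-876 than with FGF8b alone. Over all genes 22.5% were higher and 34.8% lower in that comparison. Fasn, the fatty acid synthase, was higher by 1.84 ± 0.14, from a mean of 17.9 RPKM to 65.8, Plin4, a lipid droplet protein, by 1.77 ± 0.10 and Angptl4 by 1.69 ± 0.10. Lpl was lower by 0.97 ± 0.09, Dgat2 by 0.87 ± 0.10 and Fabp4, the fatty acid carrier, by 0.44 ± 0.12. Of 20 upstream signal genes 4 were higher and 8 lower, Fgf10 by 1.24 ± 0.10 and Jag1 by 1.05 ± 0.12 upward and Dlk1, the precursor protein that restrains fat cell formation, by 2.56 ± 0.14 downward. Adipoq and Plin1, defining genes of the mature fat cell, had means of 0.0256 RPKM or less in every group.

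The genes whose levels followed each factor most closely over the 15 libraries were found by Pearson's r of log2(RPKM + 0.5), a description only, since libraries of a group share their treatment. Zfp521 was followed by Pdgfra (r = 0.997), Bmf (0.995) and Ppap2a (0.995). Klf4 was followed by Ctsa (0.993), Dpp7 (0.984) and Dusp1 (0.980), and Pparg also by Dusp1 (0.946), with Fth1 (0.942) and Lamp1 (0.941). Ctsa and Lamp1 encode lysosomal proteins and Dusp1 a phosphatase of MAP kinases. Klf5 was nearest Angptl4 (0.971) and Sgk1 (0.971), Ebf1 nearest Ifi27l2a (0.992), Cebpa nearest Ugcg (0.968), Cebpb nearest G6pc3 (0.977) and Cebpd nearest Ptprs (0.967). Gata2, whose level varied the least, had a nearest r of 0.866 with Spryd3.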

How the data were processed

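RNA was sequenced in 15 libraries (5 groups of 3), per the labels. The authors deposited 1 table of 168326 transcript rows. Its 15 value columns carry the sample titles. No header or label names the unit. The values fit RPKM: 90.5% to 92% of low values were whole multiples of 1 read per library (tolerance 0.05 read). CASAVA and bcl2fastq are named in the submitters' processing notes, and for aligner, genome build, annotation and counter: not given in the sources used here.

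From these deposited RPKM values, 1 row per symbol was taken (highest mean over the libraries), leaving out 23172 rows without a symbol. Levels were log2(RPKM + 0.5), and a fold change on this scale understates the change of low genes; folds given as such are ratios of mean RPKM. Genes that reached 0.5 RPKM in 3 or more libraries (13869) were tested with limma 3.58.1 in R 4.3.3, with a mean-variance trend over all 15 libraries (10 residual degrees of freedom). P-values were adjusted by the Benjamini-Hochberg method over all genes tested, with a threshold of 0.05. The fit was tested on simulated data. Whole reads were recovered from the RPKM steps (tolerance 0.02 read) for 100% of these genes and used for voom and for the reads printed. The inferred transcript lengths equalled those of GENCODE for 90.2% of 3896 Ensembl transcripts.

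All 10 factors are named. From the other lists, up to 3 genes per direction with the largest change past the threshold could be named, and marker genes, and target genes with low levels, were named after their values were seen. The 3 genes nearest to each factor in pattern were taken without predicted gene models. The factors and lists were chosen with earlier results of these data known. Alternatives were other pseudocounts, filters, scalings, transcript rows, voom, a fit without the trend, only the groups compared, a replicate block and leaving out each library. Positions are those of GENCODE vM21 on GRCm38 and promoters those of RefSeq on GRCm38.p6, which may differ from the annotation of the table.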

Additional observations from a re-analysis of the deposited data

How the results depend on the processing

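No change of a factor that passed in either fit turned its direction under any of the alternatives. Over 12 settings, 839 of 864 log2 changes of the 9 factors kept their side of the threshold, 13 lost it and 12 gained it. With each library left out in turn, 1045 of 1080 kept it, 23 lost it and 12 gained it. The number of factors past the threshold in FGF1 against control was 5, with a range of 4 to 7 when 1 library was left out. The same ranges were 7 to 7 around 7 in FGF8b against control, 8 to 9 around 8 in FGF9 against control, 6 to 7 around 6 in FGF8b against FGF1 and 5 to 7 around 6 in FGF9 against FGF1. They were 0 to 0 around 0 in FGF9 against FGF8b, 6 to 7 around 7 in FGF8b plus BAY-876 against FGF8b and 5 to 6 around 6 against control. Over all genes, the 41 calls between FGF9 and FGF8b became 27 with a pseudocount of 0.1, 66 with RefSeq rows, 62 with voom (79% of them higher, against 68.3%) and 0 with those 2 groups alone, a fit with fewer samples. Deviations from the group means correlated above 0.1 in 10 of 30 pairs of libraries with 1 replicate number, over a range from -0.443 to 0.534. The highest were between FGF9 and FGF8b plus BAY-876, at 0.534 for number 1 and 0.368 for number 2. These values cannot decide whether the numbers pair the libraries, since no pairs of unlike number stand beside them. With the numbers as a replicate block, Pparg between FGF9 and FGF1 passed (0.24, adjusted p = 0.0430), no factor lost its call, and the 41 calls became 30. The short Cebpa entry and the reads of Zfp423 are where depth limits the values most.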
